A study of Mus musculus with 4 samples.

Results

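The nuclear-encoded subunits of the mitochondrial respiratory chain and ATP synthase were followed across 4 kinds of mouse cell, each measured on 1 Affymetrix oligonucleotide array. The members were chosen by gene symbol alone, as the genes of the platform's annotation whose symbol belongs to the Nduf, Sdh, Uqcr, Cox4 to Cox8 or Atp5 subunit series, and 80 of the 18193 named genes met this rule. Of these, 34 belong to complex I, 4 to complex II, 8 to complex III, 17 to complex IV and 17 to complex V by their symbols. The rule uses symbols and no measured value, although it was set with earlier results of these data known.

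The array labelled HB9-GFP+ is described as holding sorted cells derived from ES cells that carry a green fluorescent reporter of HB9, the motor neuron factor encoded by Mnx1. Per the labels, these cells were treated with Sonic hedgehog (Shh), 0.1 uM retinoic acid and 0.2 uM purmorphamine, an activator of the Shh pathway. The factors are dated from differentiation day 5 to day 9 and the sort to day 8, so the stated days conflict. The second array held cerebellar granule cells of postnatal day 6, the third sorted Sox1 neural stem cells, whose origin and isolation are not described in the labels used here, and the last undifferentiated ES cells. The HB9 reporter ES line was maintained with leukemia inhibitory factor on mouse embryonic fibroblasts arrested with mitomycin C. The labels name no strain, and for the granule cells no sort or purification step.

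Electrons from NADH enter the chain at complex I, and those from succinate at complex II, which is also an enzyme of the tricarboxylic acid cycle. Coenzyme Q carries them to complex III, and cytochrome c carries them on to complex IV, which reduces oxygen. Complexes I, III and IV pump protons out of the matrix, and complex V, the ATP synthase, uses their return to make ATP. Pluripotent cells are known to draw much of their ATP from glycolysis, and neurons to depend on oxidative phosphorylation. Several subunits of complex IV have tissue-restricted paralogs, including forms typical of heart and skeletal muscle or of testis.

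The values are linear signals as deposited, and every array had a trimmed mean of 500.0, by a step that is uncertain. With 1 array per group no replicate error exists, so no test was run, and every difference below is a difference between these arrays. A gene counted as detected at a signal of 157.5 or more, which is 1 log2 unit above the mean of the arrays' median log2 signals. That mean, a signal of 78.8, is the low level, and signals under it were raised to it. Calls of higher or lower needed a detected signal on the brighter of both arrays and a difference of 2-fold or more. In bulk RNA, fewer cells of a type and less RNA per cell cannot be told apart. Signals of different probe sets are not comparable, so each gene is set only against itself on the other arrays.

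The array labelled HB9-GFP+ went against its label. On it, all 10 pluripotency genes of the marker list were detected, with Pou5f1 at 11188 (9255.5 in ES cells), whereas 1 of 10 motor neuron genes was, and Mnx1 itself read 15.9. It also held 10 of 11 fibroblast genes, with a summed signal of 19298.8, against 3 of 11 and 1567.0 in ES cells, while Fap read 28.6. Fibroblast genes were detected in granule cells too, 7 of 11 with a sum of 7919.5, and in Sox1 cells 3 of 11 with 1414.4. The granule cell array held 8 of 10 granule neuron genes but also all 7 astrocyte genes, with a summed signal of 26739.4 (16684.8 in ES cells), all 6 oligodendrocyte genes, at 30426 (2874.6 in ES cells), and 3 of 8 vessel, blood and microglia genes, at 5085.4 (538.2 in ES cells). The Sox1 array held all 9 neural stem cell genes and 7 of 10 pluripotency genes. The number of detected genes lay between 9329 and 9558. The 3'/5' signal ratio of the actin controls was 2.77 for the array labelled HB9-GFP+, 2.29 for granule cells, 5.08 for Sox1 cells and 4.55 for ES cells, and that of the Gapdh controls was 1.37, 2.70, 3.68 and 1.99 in the same order. The part of these features in the results below was not tested. The comparisons that do not use the array labelled HB9-GFP+ kept their member counts and medians when it was left out of the low level and the choice of probe sets.

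Most of the machinery was present on every array. Of the 80 members, 73 were detected on all 4 arrays, 3 on some (Cox6b2, Cox7a1 and Cox7b2) and 4 on none (Cox4i2, Cox6a2, Cox8b and Ndufb4). Signals of the 73 ran from 161.1 to 31869.7, and 53 of them stayed within 2-fold across the 4 arrays. That is 72.6% of these members, beside 35.5% of the 7371 genes detected on all arrays. The median range was 0.80 log2 units for these members and 1.24 for those genes. These members were also brighter, with median signals of 5482.1 to 8072.3 on the arrays, beside 1121.1 to 1159.3 for those genes. The shares and spreads over all genes, here and below, are not matched for signal. The part of brightness in the narrower range was not tested.

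**Figure D1:**
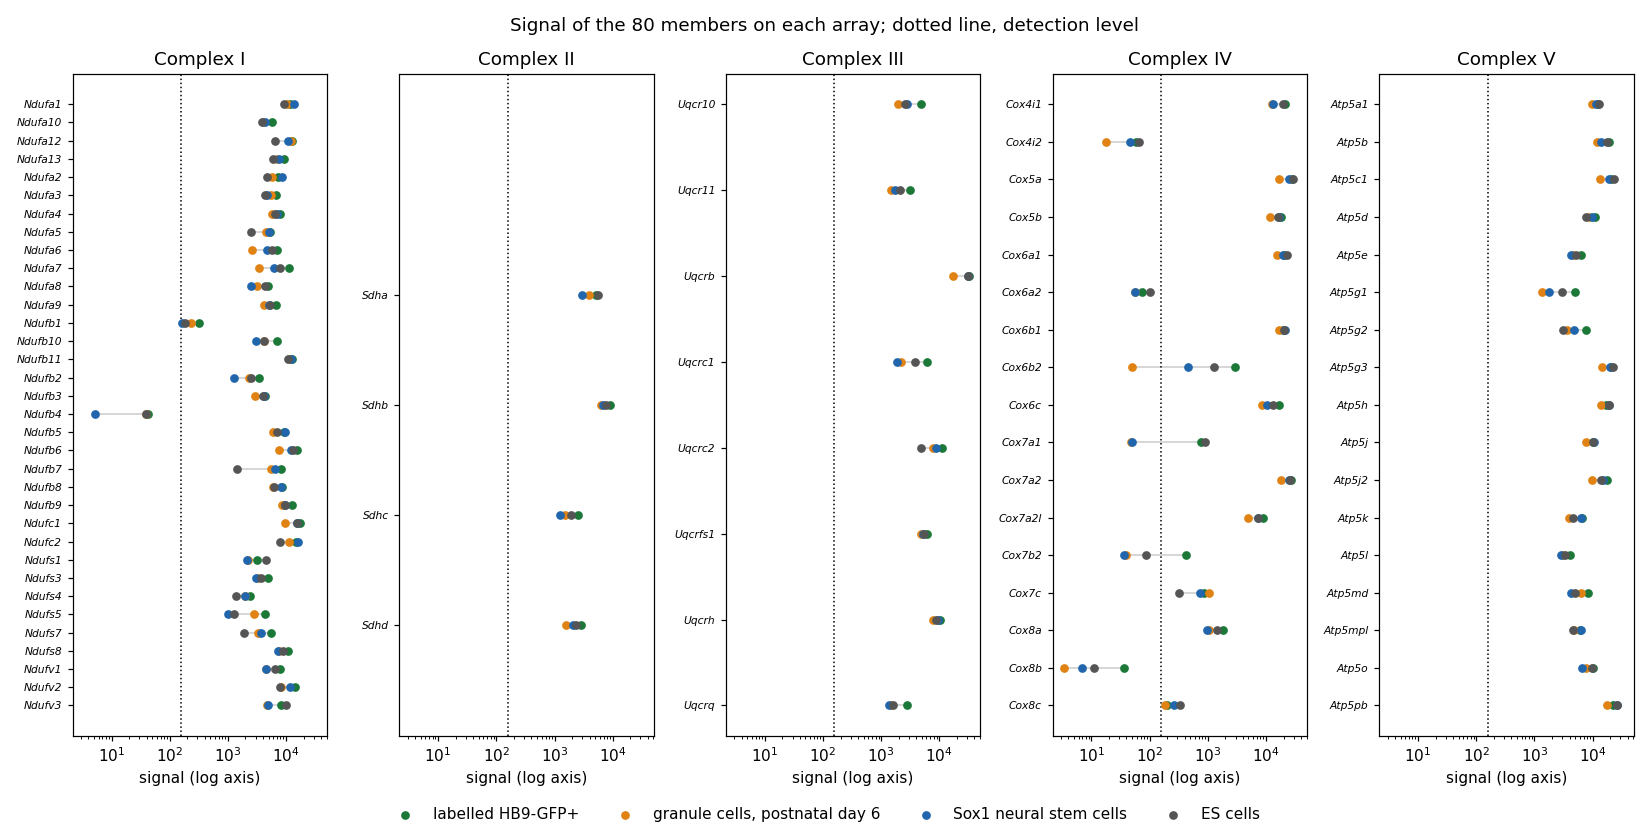
Signal on a log axis of each of the 80 members on the 4 arrays (1 array per group, no error bars), in a panel per complex, with the detection level of 157.5 as a dotted line; levels of different genes are not comparable. Most points of a gene lie close together well to the right of the line, while Cox6b2, Cox7a1 and Cox7b2 spread across it and Cox4i2, Cox6a2, Cox8b and Ndufb4 lie left of it.

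The array labelled HB9-GFP+ gave the highest signal for most members. It ranked highest for 54 of the 73 members detected on all arrays, a share of 74.0% beside 29.9% of all genes detected on all arrays, and lowest for 0. The granule cell array ranked highest for 1 and lowest for 37, a share of 50.7% beside 37.0%. The median signal of these members was 8072.3 for the array labelled HB9-GFP+, 5482.1 for granule cells, 6562.2 for Sox1 cells and 6035.6 for ES cells. These places depend on the scaling. After quantile normalization the array labelled HB9-GFP+ ranked highest for 48, and the Sox1 array lowest for 28 against 21 for the granule cell array. With the arrays centred on 8 reference genes, the granule cell array ranked highest for 41, the array labelled HB9-GFP+ for 20, and the Sox1 array lowest for 41. The 8 were Actb, Tbp, Ywhaz, Pgk1, B2m, Gusb, Rpl13a and Polr2a. Shares of all genes are not given here for either setting, so these places are no result about the members. Centring on reference genes put the median of all genes in granule cells at 0.55 log2 over ES cells and 0.67 log2 over Sox1 cells.

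Against ES cells, the array labelled HB9-GFP+ had 9 of its 76 detected members at least 2-fold higher and 0 at least 2-fold lower. Over all 10111 genes detected on either array, 12.1% were higher and 12.6% lower by the same rule. By 4-fold, 2 members were higher and 0 lower, beside 2.08% and 1.54% of genes. The median difference was 0.32 log2 for members and 0.04 log2 for all genes, and 63 of the 76 members lay above 0, beside 51.8% of genes. The median was 0.47 for complex I, 0.24 for complex II, 0.63 for complex III, 0.12 for complex IV and 0.29 for complex V. With reference genes the complex IV median was -0.03 and the others stayed above 0. After quantile normalization the median was 0.23 log2 for members and 0.11 log2 for all genes, so members lay 0.12 log2 above all genes, against 0.28 log2 as deposited. In complex III all 8 subunits lay above 0, and in complex I 31 of 33 did. The SD of the difference over 18 hybridisation controls was 0.11 log2, and the SD over probe sets of the same member was 0.40 log2.

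The Sox1 cells had 3 of 75 detected members higher than in ES cells and 5 lower. The shares over 10542 genes were 19.3% higher and 19.4% lower. By 4-fold, 1 member was higher and 1 lower, beside 6.39% and 5.33% of genes. With centring on reference genes the split was 2 higher and 7 lower, where 39.2% of all genes were called higher or lower. The median difference of members was -0.06 log2, beside -0.02 log2 for all genes, with 31 members above 0 and 44 below. By complex the medians were 0.06 for complex I, -0.40 for complex II, -0.03 for complex III, -0.24 for complex IV and -0.13 for complex V. The complex I median was -0.07 with reference genes.

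Granule cells had 3 of 75 detected members higher and 7 lower than ES cells, where 26% of 11021 genes were higher and 25.1% lower. By 4-fold, 0 members were higher and 2 lower, beside 11.8% and 8.4% of genes. The median difference was -0.32 log2 for members and -0.08 log2 for all genes, with 21 members above 0 and 54 below. By complex it was -0.03 for complex I, -0.42 for complex II, -0.32 for complex III, -0.58 for complex IV and -0.41 for complex V. The direction of this median turned with the scaling. Quantile normalization gave -0.09 for members and -0.16 for all genes, and centring on reference genes, whose own median difference was -0.50 log2, gave 0.25 for members and 0.55 for all genes. The count was then 9 higher and 2 lower, where 53.2% of all genes were called higher or lower. Relative to all genes, members lay at -0.24 log2 as deposited, 0.07 after quantile normalization and -0.30 after centring on reference genes. The 8 reference genes were themselves not level in granule cells. Over ES cells 1 was called lower (Pgk1, 3.07-fold) and 0 higher. Over Sox1 cells 2 were called lower (B2m, 2.16-fold, and Polr2a, 2.23-fold) and 0 higher. Calls lost or turned by this centring, here and below, carry that limit.

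Set directly against the Sox1 cells, granule cells had 1 of 74 detected members higher and 1 lower, beside 18.3% and 15.3% of 10453 genes. By 4-fold, 0 were higher and 1 lower, beside 6.77% and 3.72%. The median member difference was -0.25 log2, and that of all genes -0.07. The member median became 0.02 after quantile normalization and 0.44 with reference genes, where 8 members were higher and 1 lower. The median of all genes was -0.14 and 0.67 under these 2 settings, so with reference genes the members lay below all genes. The share of all genes called with reference genes is not given here, so the split of 8 and 1 is no result about the members. As deposited the medians were -0.16 for complex I, 0.07 for complex II, -0.21 for complex III, -0.41 for complex IV and -0.42 for complex V, and with reference genes all 5 lay above 0, between 0.27 and 0.76. The spread of the members was small in this comparison, with an SD of 0.49 log2 beside 1.30 over all genes, which are not matched for signal. The first 3 comparisons share the ES array and the last shares an array with each of the 2 before it, so they are not independent of each other.

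**Figure D2:**
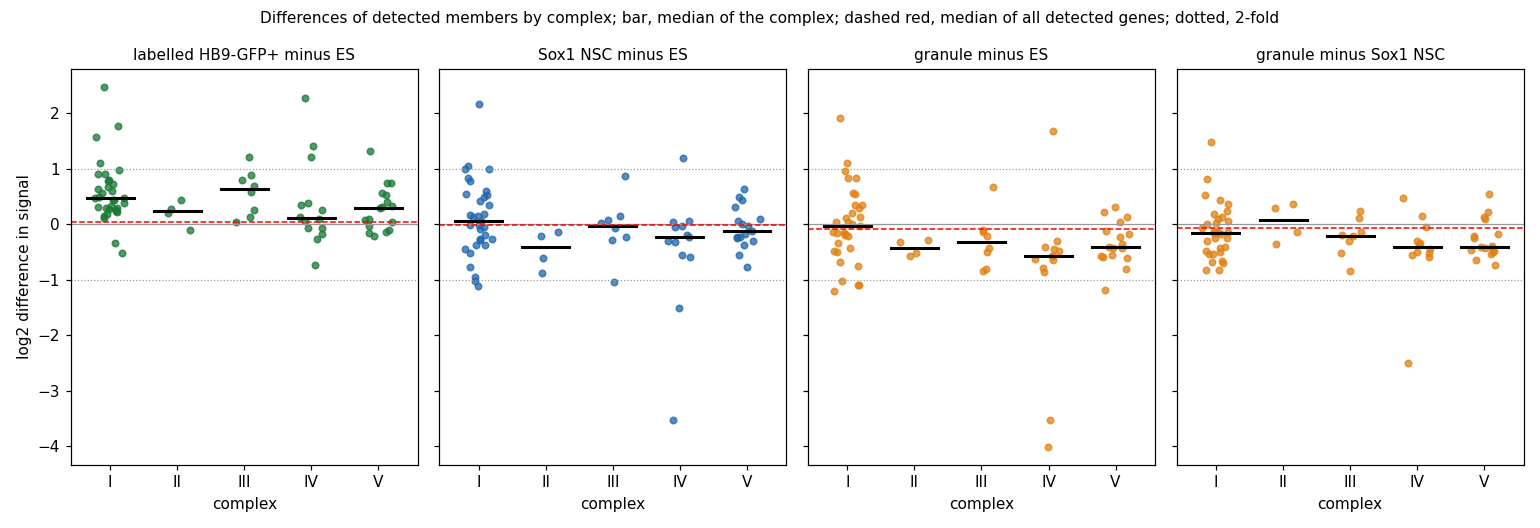
Log2 difference in signal of each detected member (points) by complex in the 4 comparisons, with the median of the complex (black bar), the median of all detected genes (dashed red) and the 2-fold limits (dotted). On the array labelled HB9-GFP+ the medians of all 5 complexes lie above 0 as deposited (complex IV at -0.03 with reference genes), and in granule cells minus ES cells they lie between -0.03 and -0.58 as deposited, a direction that turns for 4 of the 5 complexes when arrays are centred on reference genes. The median of all genes is 0.55 log2 under that centring.

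The largest difference from ES cells within complex I was in Ndufb7 on each of the other 3 arrays. Ndufb7, an accessory subunit of the membrane arm, read 8072.3 on the array labelled HB9-GFP+, 5482.1 in granule cells, 6562.2 in Sox1 cells and 1462.3 in ES cells. It was 5.52-fold, 3.75-fold and 4.49-fold higher than in ES cells in that order of arrays, so the ES array alone was low. Its other probe set was also lowest in ES cells, at 2898.4, 1755.4, 1430.2 and 559.9 in the same order of arrays, but had granule cells above Sox1 cells. By the chosen probe sets, Ndufb7 and Cox7c were the only 2 of 76 detected members at least 2-fold lower in ES cells than on each of the other 3 arrays. That share was near the 2.39% of all detected genes that met this pattern.

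Ndufs7, a core subunit that holds an iron-sulfur cluster, read 5522.1 on the array labelled HB9-GFP+, 3328.9 in granule cells, 3716.6 in Sox1 cells and 1864.2 in ES cells. It was called only for the array labelled HB9-GFP+, at 2.96-fold, and its second probe set gave 1.93 log2 there. Ndufc2, a membrane-arm accessory subunit, read 14548.2, 11396.7, 16052.2 and 7753.1 on the same arrays and was 2.07-fold higher in Sox1 cells than in ES cells. Its 2 other detected probe sets differed by 1.31 and 1.34 log2 in that comparison. They read 2660.2, 2293.4, 2040.3 and 825.0, and 4209.7, 4255.4, 4471.7 and 1763.1. By both of these, ES cells were at least 2-fold below every other array. By the chosen probe set the difference between Sox1 and ES cells dropped short of 2-fold after quantile normalization (0.96 log2) and with reference genes (0.93). Ndufa5 and the complex III core protein Uqcrc2 complete the members called higher under the HB9-GFP+ label that had 2 detected probe sets, and they were picked out after their values were seen. Ndufa5 read 5371.9, 4479.6, 4993.3 and 2506.1, and Uqcrc2 read 11126.3, 7672.4, 8790.7 and 4838.0, in the same order of arrays. In both, ES cells were lowest by either probe set.

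Ndufs5, an accessory subunit of the intermembrane space side, had a pattern of its own. It read 4335.5 on the array labelled HB9-GFP+, 2762.5 in granule cells, 990.4 in Sox1 cells and 1282.1 in ES cells. Over ES cells it was 3.38-fold higher for the array labelled HB9-GFP+ and 2.15-fold higher in granule cells, and it was 2.79-fold higher in granule cells than in Sox1 cells. No other member was at least 2-fold higher on these 2 arrays than on both others, a pattern met by 0.705% of detected genes. The gene was read by 1 probe set, which the annotation pairs with a non-coding RefSeq record. A second Ndufs5 probe set carries the symbol of a pseudogene, Ndufs5-ps, as well and was not used, so a near-identical copy may share this signal.

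Other complex I subunits were called lower in granule or Sox1 cells than in ES cells. Ndufs1, the large core subunit of the NADH-oxidising arm, read 3155.2 on the array labelled HB9-GFP+, 2236.2 in granule cells, 2100.5 in Sox1 cells and 4553.2 in ES cells, and was 2.04-fold lower in granule cells and 2.17-fold lower in Sox1 cells. Ndufv3, an accessory subunit of the same arm, read 8026.3, 4751.6, 4963.6 and 10122.3, and was 2.13-fold lower in granule cells and 2.04-fold lower in Sox1 cells. Both had 1 detected probe set. Ndufa6 and Ndufa7, accessory subunits, were lower in granule cells than in ES cells.

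Ndufa7 read 11169.3 on the array labelled HB9-GFP+, 3457.6 in granule cells, 6107.8 in Sox1 cells and 7952.4 in ES cells, and was 2.30-fold lower in granule cells. Its 4 other probe sets differed by -1.82 to -0.51 log2, all downward but not all by 2-fold. Ndufa6 read 6868.2, 2641.3, 4709.1 and 5652.4, and was 2.14-fold lower. With centring on reference genes the granule cell calls of Ndufa6, Ndufa7, Ndufv3 and Ndufs1 were lost, at -0.53, -0.64, -0.53 and -0.46 log2. That of Ndufv3 was also lost after quantile normalization, at -0.95, and that of Ndufs1 with centring on genes detected on all 4 arrays, at -0.99. The 2 members still called lower with reference genes were Cox6b2 and Cox7a1. By the chosen probe sets, the other complex I members passed no 2-fold limit in any comparison. Among them Ndufb4 was undetected, at 42.0, 38.6, 5.2 and 39.2, and Ndufa10, Ndufb2 and Ndufs4 each had another probe set that passed 2-fold. Other probe sets of Ndufb4 carry several symbols and were not used.

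**Figure D3:**
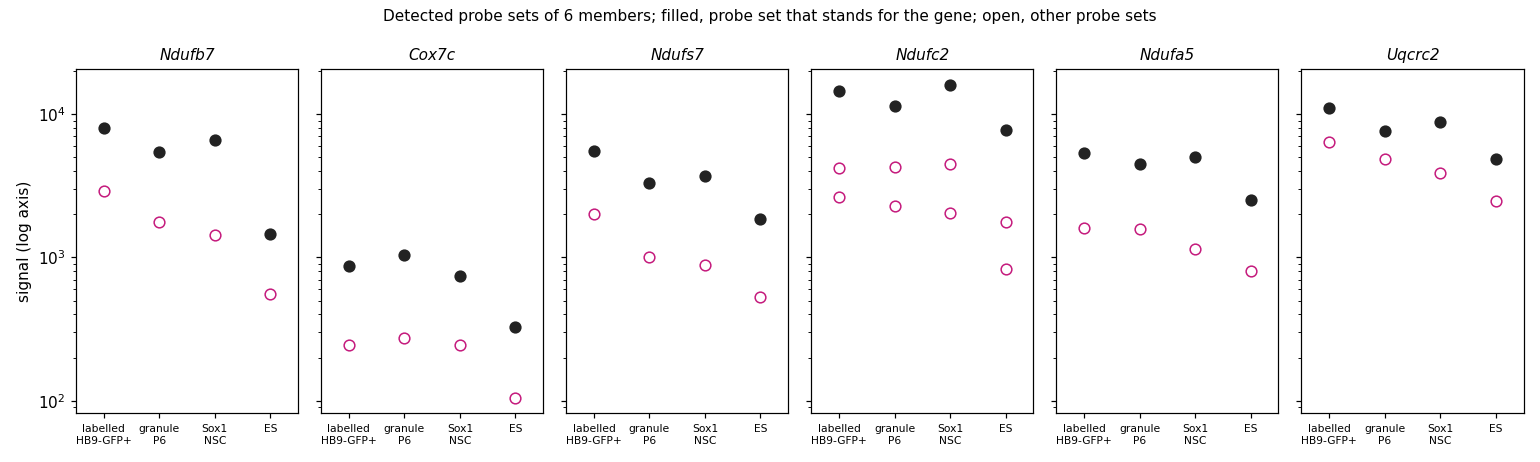
Signal on a log axis on the 4 arrays (1 each, no error bars) of 6 members with at least 2 detected probe sets; filled points are the probe set that stands for the gene and open points its other probe sets. The 6 were picked because they were called higher than in ES cells, so their low ES signals do not stand for other members. In all 6 the ES array is the lowest point of every probe set shown, with Ndufb7 at 1462.3 and 559.9.

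Complex II links the chain to the tricarboxylic acid cycle. By the chosen probe sets, none of its 4 subunits passed 2-fold in any comparison as deposited. Sdha, the flavoprotein that oxidises succinate, read 5169.6 on the array labelled HB9-GFP+, 3861.3 in granule cells, 3008.9 in Sox1 cells and 5565.4 in ES cells. Sdhb, the iron-sulfur protein, read 8824.8, 6243.6, 6905.9 and 7644.0 in the same order. Of the membrane anchors, Sdhc read 2572.6, 1531.8, 1258.6 and 1911.6, and Sdhd read 2843.0, 1592.7, 2045.6 and 2361.1. By these probe sets all 4 were below ES cells in both granule and Sox1 cells, with differences of -0.89 to -0.15 log2. In Sox1 cells this depends on the probe set. Another probe set of Sdhd read 1080.3 in Sox1 cells and 852.6 in ES cells, a difference of 0.34 log2. Another of Sdha was lower in Sox1 cells than in ES cells by more than 2-fold, at -1.01 log2. Centring on reference genes brought 1 subunit past 2-fold, lower in Sox1 cells than in ES cells, and 1 higher in granule cells than in Sox1 cells, and put the median of granule cells over ES cells at 0.14.

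In complex III, Uqcrc1, a core protein facing the matrix, read 6185.0 on the array labelled HB9-GFP+, 2196.6 in granule cells, 1857.3 in Sox1 cells and 3849.5 in ES cells. It was 2.07-fold lower in Sox1 cells than in ES cells, and did not pass 2-fold in the other comparisons. Its partner Uqcrc2, above, differed from ES cells by 0.86 log2 in Sox1 cells and 0.67 log2 in granule cells, both short of 2-fold. By the chosen probe sets, the other 6 subunits differed from ES cells by 0.04 to 0.89 log2 on the array labelled HB9-GFP+. In granule cells they differed by -0.84 to -0.11 log2, and in Sox1 cells by -0.29 to 0.15 log2. Other probe sets of Uqcr10 passed 2-fold over ES cells. They gave 1.66 and 1.36 log2 on the array labelled HB9-GFP+, and -1.42 and -1.14 log2 in granule cells.

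The 2 members with the widest range over the arrays, Cox6b2 and Cox7a1, were complex IV paralogs. Cox6b2 encodes a form of subunit 6b known from testis, and Cox6b1 the form made in most tissues. Cox6b2 read 2927.2 on the array labelled HB9-GFP+, 49.1 in granule cells, 447.4 in Sox1 cells and 1267.5 in ES cells. Relative to ES cells it was 2.31-fold higher under the HB9-GFP+ label, 2.83-fold lower in Sox1 cells and at least 16.1-fold lower in granule cells. Granule cells were also at least 5.68-fold below Sox1 cells. Cox6b1 read 19620.5, 16635.7, 21256.8 and 20627.3 in the same order, a spread under 2-fold.

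Cox7a1, the heart and skeletal muscle form of subunit 7a, read 748.5 on the array labelled HB9-GFP+, 48.1 in granule cells, 49.0 in Sox1 cells and 904.6 in ES cells. It was at least 11.5-fold lower than in ES cells in both neural groups. Cox7a2, the form of other tissues, read 26393.5, 18110.2, 24865.5 and 25478.2 on the same arrays. Cox7a2l, which takes part in the assembly of respiratory supercomplexes, read 8795.6, 4961.7, 7149.2 and 7418.3. Cox7a1 thus had a low signal in the neural groups, and neither relative did.

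Cox7b2, a testis form of subunit 7b, was detected only on the array labelled HB9-GFP+, at 421.9, beside 39.1 in granule cells, 36.6 in Sox1 cells and 87.4 in ES cells. Cox6b2 and Cox7b2 were the 2 members set at least 2-fold above all other arrays on the array labelled HB9-GFP+, a pattern met by 4.01% of detected genes. Cox6b2 and Cox7a1 were at least 2-fold higher on this array and the ES array than on both neural arrays, a pattern met by 7.61%. Each of the 3 genes was read by 1 probe set.

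Other tissue-restricted forms were undetected or close to the detection level. Cox4i2, a form known from lung, read 57.4 on the array labelled HB9-GFP+, 17.6 in granule cells, 46.1 in Sox1 cells and 64.5 in ES cells. Its common counterpart Cox4i1 read 21382.1, 12697.4, 13200.8 and 19972.3. Cox6a2, a heart and muscle form, read 74.9, 55.1, 56.8 and 101.8, and Cox6a1 read 20602.9, 15641.5, 19830.1 and 23399.3. No array detected Cox4i2 or Cox6a2, and their counterparts were detected on all 4.

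Cox8b, another muscle form, read 35.8 on the array labelled HB9-GFP+, 3.4 in granule cells, 7.0 in Sox1 cells and 11.1 in ES cells. Cox8c, known from testis, read 198.2, 181.4, 266.8 and 330.6, and Cox8a, the common form, 1838.8, 1066.1, 961.9 and 1420.5. Cox8c lay just above detection on all arrays and was called in no comparison.

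Markers of the tissues that these forms are named for gave a mixed reading. Of 9 male germ cell genes, 4 were detected on the array labelled HB9-GFP+, 0 in granule cells, 1 in Sox1 cells and 4 in ES cells, with summed signals of 6328.3, 165.1, 482.0 and 3691.2. Dazl read 4326.2 on the array labelled HB9-GFP+ and 808.6 in ES cells, and Ddx4, also of early germ cells, 834.3 and 262.2. The meiotic gene Sycp3 read 765.2 on the array labelled HB9-GFP+, 35.3 in granule cells, 261.9 in Sox1 cells and 2061.9 in ES cells, so it was 2.69-fold lower under the HB9-GFP+ label than in ES cells. Ldhc, the lactate dehydrogenase of testis, read 237.7, 1.1, 4.1 and 341.3, while the sperm genes Prm1, Prm2, Tnp1 and Acrv1 were undetected on every array. Of 11 striated muscle and heart genes, 1, 0, 1 and 3 were detected on the same arrays, with sums of 647.6, 398.5, 602.7 and 1200.3, and Ckm, Mb and Myh7 were undetected throughout. The muscle genes detected were Myl7, which read 264.0, 2.0, 26.6 and 274.7, Myl2, at 58.6, 81.5, 32.5 and 353.9, Tnni3, at 43.5, 4.2, 51.3 and 159.4, and Actc1, at 17.8, 97.2, 177.3 and 13.1. The part of such cells in the paralog signals was not tested.

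No pair of paralogs exchanged places as deposited. Of 8 subunit families, 7 had at least 2 measured forms, which made 13 pairs and, over 4 comparisons, 52 paired differences. In 0 of the 52 was one paralog called higher and the other lower. In 4 of the pairs, which make 16 of the 52, one gene was undetected on every array, so that these could not show an exchange. Where a paralog was called, its counterparts stayed within 2-fold. In granule cells over ES cells, the difference of Cox6b2 minus that of Cox6b1 was -3.70 log2.

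**Figure D4:**
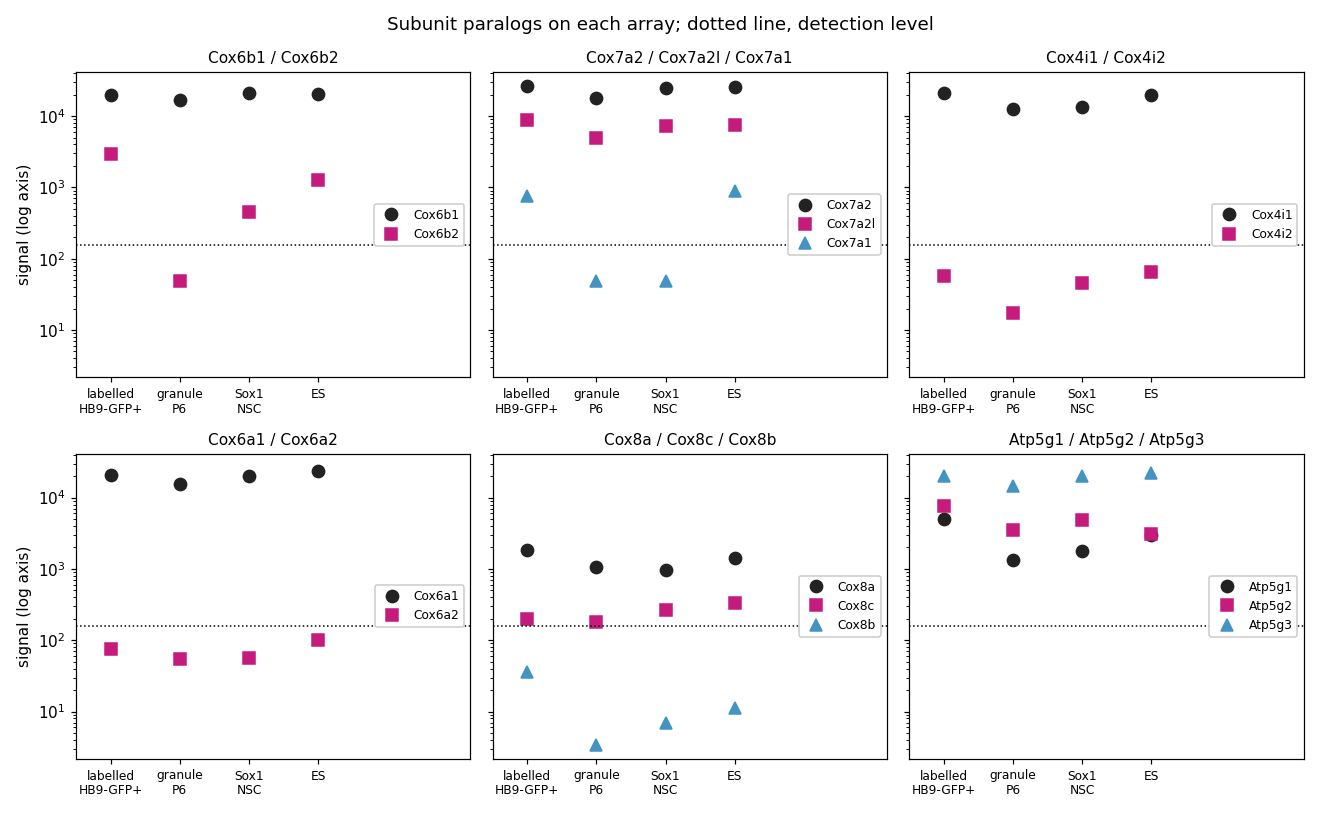
Signal on a log axis on the 4 arrays (1 each, no error bars) of the paralogs of 6 subunit families, with the detection level as a dotted line; levels of different genes are not comparable. Cox6b1, Cox7a2, Cox4i1, Cox6a1, Cox8a and Atp5g3 stay above the line on all arrays, while Cox6b2 falls to 49.1 in granule cells and Cox7a1 to 48.1 and 49.0 in granule and Sox1 cells.

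Cox7c, a small subunit of complex IV, was low in ES cells. It read 865.3 on the array labelled HB9-GFP+, 1036.2 in granule cells, 745.1 in Sox1 cells and 325.7 in ES cells, and was 2.66-fold, 3.18-fold and 2.29-fold higher than in ES cells in that order. A second probe set read 244.8, 274.5, 246.6 and 105.2. The remaining common subunits Cox5a, Cox5b and Cox6c passed 2-fold in no comparison. Ndufa4, listed with complex I by its symbol but known as a component of complex IV, read 7844.9, 5797.5, 7123.6 and 6466.8. Its paralog Ndufa4l2, whose symbol falls outside the rule, read 224.4, 38.1, 14.4 and 156.1 in the same order. Ndufa4l2 was detected only on the array labelled HB9-GFP+, lay just under the detection level in ES cells, and was called in no comparison.

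In complex V, the 3 genes for the c subunit, which forms the rotating ring and has the same mature protein from each gene, differed in their patterns. Atp5g1 read 5017.0 on the array labelled HB9-GFP+, 1324.6 in granule cells, 1767.6 in Sox1 cells and 3021.5 in ES cells, and was 2.28-fold lower in granule cells than in ES cells. Atp5g2 read 7646.6, 3563.5, 4790.1 and 3083.0, and exceeded ES cells 2.48-fold on the array labelled HB9-GFP+. Atp5g3 read 20338.1, 14434.2, 20137.6 and 22017.5 and was called in no comparison. The call of Atp5g1 was lost with reference genes (-0.62 log2), with the mean over probe sets (-0.67) and with the probe set whose ID has no suffix letter (-0.01), and that of Atp5g2 with the mean over probe sets (0.26). Their other probe sets were undetected. By the chosen probe sets, the subunits of the catalytic head and its central stalk passed 2-fold in no comparison, among them Atp5a1, Atp5b and Atp5c1. Nor did the remaining members of complex V. Another probe set of Atp5d gave 1.36 log2 for the array labelled HB9-GFP+ over ES cells, and another of Atp5c1 gave -1.54 log2. Another of Atp5j2 gave 1.57 log2 in granule cells over ES cells.

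Where a gene was called and had at least 2 detected probe sets, these could be compared. Of the 9 calls on the array labelled HB9-GFP+, 5 had such a check, and all 5 held the direction and 2-fold on each probe set. Ndufa5 held it only just, at 1.001 log2 on its second probe set, and its call was lost with reference genes. Of the 8 calls in Sox1 cells over ES cells, 3 had it and held. Of the 10 in granule cells over ES cells, 3 had it, all 3 held the direction and 2 held 2-fold throughout. Neither of the 2 calls between granule and Sox1 cells had a second probe set.

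Promoters were read from RefSeq on GRCm38.p6, from 250 bases before to 50 after the first listed start of each gene, for the 66 of 80 members with an entry in the promoter table. In the 300-base windows, the exact letters of 4 motifs were sought on both strands. The NRF1 motif, which is GCGC, then A and any base, then GCGC again, was present in 21.2% of member promoters beside 4.78% of all 27025 promoters. CCGGAAG, the ETS motif bound by GABP, was present in 24.2% beside 9.12%, AANATGGC (YY1) in 19.7% beside 6.23%, and CAAGGTCA (ESRRA) in 6.06% beside 1.53%. At least 1 of the 4 was found in 57.6% of members and 19.3% of all promoters. The median ratio of observed to expected CpG was 0.80 in members and 0.39 in all promoters, and 81.8% and 36.4% lay above 0.6.

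In 2 paralog pairs, the form with uneven signals had a lower ratio than its counterpart. The ratio was 0.43 for Cox6b2 and 0.81 for Cox6b1, and 0.33 for Cox7a1 and 0.83 for Cox7a2. It was 0.56 for Cox7b2, 0.11 for Cox8b, which was undetected on every array, and 0.52 for Ndufb7. Some members that stayed within 2-fold over the arrays had similar ratios, such as Ndufs8 at 0.53, Ndufa3 at 0.56 and Sdhb at 0.57. A link between ratio and signal was not tested. The 250 bases before the start are printed 5' to 3' for these 2 paralog pairs, for Cox7b2 and for Ndufb7, since the expression results turn on them, with matches to the 4 motifs in capitals.
Cox6b2 (chr7:4753095-4753344, minus strand): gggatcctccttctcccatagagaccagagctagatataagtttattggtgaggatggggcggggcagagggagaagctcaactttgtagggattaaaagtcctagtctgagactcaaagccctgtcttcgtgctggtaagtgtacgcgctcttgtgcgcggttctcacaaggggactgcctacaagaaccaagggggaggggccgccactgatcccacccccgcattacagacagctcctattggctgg
Cox6b1 (chr7:30626115-30626364, minus strand): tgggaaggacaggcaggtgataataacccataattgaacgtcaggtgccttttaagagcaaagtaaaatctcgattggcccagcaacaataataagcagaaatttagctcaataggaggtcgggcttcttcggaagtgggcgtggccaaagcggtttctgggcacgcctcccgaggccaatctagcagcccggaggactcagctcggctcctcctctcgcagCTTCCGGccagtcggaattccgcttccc
Cox7a1 (chr7:30183921-30184170, plus strand): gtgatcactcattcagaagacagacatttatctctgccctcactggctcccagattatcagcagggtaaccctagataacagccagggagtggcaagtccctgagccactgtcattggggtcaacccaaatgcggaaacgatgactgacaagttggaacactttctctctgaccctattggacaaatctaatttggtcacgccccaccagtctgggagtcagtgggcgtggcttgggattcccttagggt
Cox7a2 (chr9:79759854-79760103, minus strand): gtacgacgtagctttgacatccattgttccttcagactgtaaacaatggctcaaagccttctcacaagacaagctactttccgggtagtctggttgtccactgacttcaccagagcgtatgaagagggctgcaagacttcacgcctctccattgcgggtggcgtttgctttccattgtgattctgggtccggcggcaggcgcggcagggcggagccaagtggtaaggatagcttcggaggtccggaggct
Cox7b2 (chr5:71548206-71548455, minus strand): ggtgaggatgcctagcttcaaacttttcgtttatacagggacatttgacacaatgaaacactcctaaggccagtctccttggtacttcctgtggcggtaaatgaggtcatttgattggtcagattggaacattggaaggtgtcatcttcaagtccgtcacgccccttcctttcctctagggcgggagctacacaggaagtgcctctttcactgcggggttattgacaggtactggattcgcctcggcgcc
Ndufb7 (chr8:83566508-83566757, plus strand): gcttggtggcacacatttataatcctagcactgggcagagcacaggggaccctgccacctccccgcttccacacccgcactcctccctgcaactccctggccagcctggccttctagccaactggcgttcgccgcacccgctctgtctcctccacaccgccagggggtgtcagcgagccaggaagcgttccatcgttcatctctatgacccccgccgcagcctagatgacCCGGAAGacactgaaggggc
In these 6 windows, an ETS motif stands in Cox6b1 on the minus strand, with its first base at -28, and in Ndufb7 on the plus strand at -20. The other 4 windows hold none of the 4 letter strings. Such a match is a description of the letters and not a measured site.

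Other genes of mitochondrial energy metabolism were listed for comparison. Their counts are over the genes of a list detected on either array, and stand beside the shares of all genes given above for the same comparisons. Under the HB9-GFP+ label 12.1% of genes were higher and 12.6% lower than in ES cells, in Sox1 cells 19.3% and 19.4%, in granule cells 26% and 25.1%, and 18.3% and 15.3% for granule over Sox1 cells. Of 37 measured assembly factors of the complexes, 6 of 34 detected were higher and 1 lower on the array labelled HB9-GFP+ than in ES cells. In Sox1 cells 7 of 34 were higher and 4 lower, and in granule cells 4 of 35 were higher and 9 lower. Coa3, an assembly factor of complex IV, read 3709.0 on the array labelled HB9-GFP+, 2555.4 in granule cells, 2800.4 in Sox1 cells and 794.6 in ES cells, and was 4.67-fold, 3.22-fold and 3.52-fold higher than in ES cells. Cox17, the copper chaperone of complex IV, read 15218.4, 2843.0, 6099.7 and 15095.4, and was 5.31-fold lower in granule cells and 2.47-fold lower in Sox1 cells. Nubpl, which delivers iron-sulfur clusters to complex I, read 2267.4, 281.8, 1110.9 and 1106.1, and was 3.93-fold lower in granule cells than in ES cells. Against Sox1 cells, granule cells had 0 of 35 assembly factors higher and 8 lower. With reference genes the granule cell splits became 8 higher and 5 lower over ES cells, and 6 higher and 1 lower over Sox1 cells. Under this setting, here and in the lists below, 53.2% of all genes were called in granule cells over ES cells. The median of all genes was then 0.55 log2 over ES cells and 0.67 log2 over Sox1 cells. The share of all genes called over Sox1 cells under this setting is not given here, so those splits have no background beside them.

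Of 17 genes for mitochondrial biogenesis and the mitochondrial genome, all 17 of them detected in both granule cell comparisons, 1 was higher and 9 lower in granule cells than in ES cells, and 1 higher and 8 lower than in Sox1 cells. The median difference was -1.07 log2 over ES cells and -0.52 log2 over Sox1 cells, and with reference genes it was -0.50 and 0.17, so the second turned sign. Top1mt, the mitochondrial DNA topoisomerase, read 352.2 on the array labelled HB9-GFP+, 80.9 in granule cells, 341.5 in Sox1 cells and 347.6 in ES cells, and was detected on all but the granule cell array. Tfb1m, which methylates mitochondrial ribosomal RNA, read 1766.9, 319.7, 1244.1 and 1382.1 and was 4.32-fold lower in granule cells than in ES cells. The one gene higher was Ppargc1a, a coactivator of mitochondrial gene expression, which read 9.4, 286.0, 43.6 and 0.5 and was at least 3.63-fold higher in granule cells than in either. With reference genes the splits were 2 higher and 4 lower over ES cells and 3 higher and 4 lower over Sox1 cells. In Sox1 cells over ES cells 0 of 16 detected genes were higher and 3 lower, and on the array labelled HB9-GFP+ 1 of 16 was higher and 0 lower.

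Of 22 genes of the tricarboxylic acid cycle and pyruvate dehydrogenase, none of the 21 detected was called on the array labelled HB9-GFP+. In Sox1 cells 6 of 21 were lower and 0 higher than in ES cells, and in granule cells 7 of 22 were lower and 1 higher, or 2 lower and 3 higher with reference genes. Pdk1, a kinase that switches pyruvate dehydrogenase off, read 7268.5 on the array labelled HB9-GFP+, 347.4 in granule cells, 1998.7 in Sox1 cells and 9419.4 in ES cells. It was 27.1-fold lower in granule cells and 4.71-fold lower in Sox1 cells. Pdk4, a related kinase, read 580.9, 105.3, 43.4 and 731.6, and was at least 9.29-fold lower in Sox1 cells.

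Among 14 genes for electron carriers and coenzyme Q synthesis, all detected in the comparisons with ES cells, 2 were higher and 0 lower on the array labelled HB9-GFP+, 2 and 2 in Sox1 cells, and 1 and 4 in granule cells, each over ES cells. In granule cells the split was 1 and 1 with reference genes. Cyct, the testis cytochrome c, read 1093.2 on the array labelled HB9-GFP+, 28.2 in granule cells, 39.0 in Sox1 cells and 610.3 in ES cells, and was at least 7.75-fold lower in each neural group than in ES cells. Coq3, a methyltransferase of coenzyme Q synthesis, read 1388.4, 320.6, 259.4 and 296.3, which was 4.69-fold above ES cells under the HB9-GFP+ label. Of 12 inner membrane carriers and coupling proteins, 2 of the 9 detected were higher and 0 lower under the HB9-GFP+ label than in ES cells. One was Slc25a31, an ADP/ATP carrier known from germ cells, which read 1254.1, 19.6, 46.2 and 145.7. In Sox1 cells 1 of 8 was higher, Slc25a4, another ADP/ATP carrier, which read 10835.1, 10923.5, 14616.2 and 5951.8, and 1 lower. Granule cells had none of 8 past 2-fold over ES cells as deposited. A last list held 4 measured genes whose symbols fall outside the rule, Ndufab1, Ndufa4l2, Cyc1 and Atpif1, not all of them subunits. Cyc1 is also counted among the electron carriers and Atpif1 among the carriers and coupling proteins. Of the 4, only Ndufab1, the mitochondrial acyl carrier protein, was called higher than in ES cells, under the HB9-GFP+ label and in Sox1 cells. It read 7075.8, 3453.4, 7269.4 and 2092.0 in the order above.

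**Figure D5:**
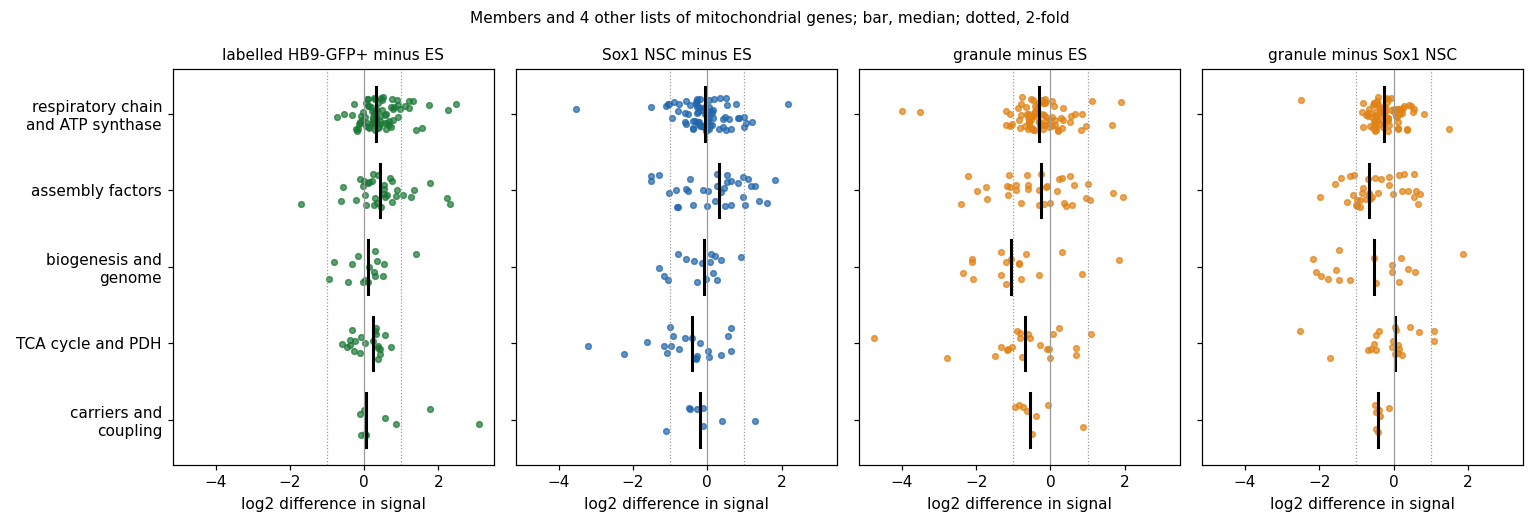
Log2 difference in signal of the detected respiratory chain and ATP synthase members and of the detected genes of 4 other mitochondrial lists in the 4 comparisons, with medians as bars and 2-fold as dotted lines. Members lie in a narrow band around medians of 0.32, -0.06, -0.32 and -0.25, while the biogenesis list lies at -1.07 in granule cells minus ES cells as deposited and at -0.50 with reference genes.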

How the data were processed

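Each of 4 mouse cell populations was measured on 1 Affymetrix array, from biotin-labelled cRNA of Trizol-extracted total RNA, per the labels' protocols. The deposited values are linear intensities from 0.1 to 43110.3 for 45101 probe sets. GCRMA is named, with no version, in the submitters' processing notes, but the values are not on a log2 scale and each array has a mean, trimmed by 2% at each end, of 500.0, so the step that made these intensities is uncertain. The aligned genome build of the probes is not given in the sources used here. Scaling to a common mean hides any difference in total RNA per cell.

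Probe sets were named from the platform's annotation: 34958 had 1 symbol and 932 had several, and these 932 were left out. Where a gene had several probe sets, the one brightest on average over the arrays stood for it, which gave 18193 genes. The 80 members had 163 probe sets, and 48 had more than 1. Of the chosen probe sets, 49 carry a suffix (_a, _s or _x) for probes that may match more than 1 transcript. All 80 matched a RefSeq gene identifier, and 66 an entry of the RefSeq promoter table.

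Values were taken to log2 and floored at the low level of 6.30. A difference was called at 1 log2 unit where the brighter array was detected. A fold against an array below the low level is given as "at least", and both signals are given without a fold where the dimmer one was above that level but undetected. No p-value was computed, since no group has replicates, and precision is limited by the number of arrays. The calling rule was run on simulated data, with noise below the spread between probe sets of 1 member and with set differences all past 2-fold. That run checks the code and says nothing about the error of these arrays. Python 3.11.15, numpy 2.4.6 and pandas 2.3.3 were used.

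The members and the gene lists were chosen with earlier results of these data known. Named members were the up to 6 largest called differences in each direction per comparison, all isoform families, complex II and the undetected members, and from other lists up to 3 per direction, of which those with the plainest roles are given. Alternatives were quantile normalization, centring on reference genes other than Hprt or on genes detected on all 4 arrays, the mean over probe sets, probe sets without a suffix letter, a detection level 1 log2 unit higher and no floor, and 2 added after seeing the data.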

Additional observations from a re-analysis of the deposited data

How the results depend on the processing

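Of the 4 median differences of the members, those of granule cells turned sign with the scaling. Granule cells over ES cells gave -0.32 log2 as deposited, -0.088 after quantile normalization and 0.25 when arrays were centred on reference genes. Granule cells over Sox1 cells gave -0.25 as deposited, 0.018 after quantile normalization, 0.44 with reference genes and -0.17 with probe sets without a suffix letter. The cause was not tested. The array labelled HB9-GFP+ over ES cells gave 0.32 as deposited, 0.23 after quantile normalization and 0.17 with reference genes. Sox1 cells over ES cells gave -0.06 as deposited, -0.19 with reference genes, -0.15 with the mean over probe sets and -0.19 without suffix letters. The count of 2 members at least 2-fold apart between granule and Sox1 cells became 9 with reference genes and 4 without suffix letters. The shares of all genes for these 2 counts are not given here. The sums of higher and lower calls in the other 3 comparisons stayed within 1.5 times under every alternative run, but their splits did not. Granule cells over ES cells had 3 higher and 7 lower as deposited, 9 and 2 with reference genes and 4 and 4 without suffix letters. The array labelled HB9-GFP+ over ES cells had 9 and 0 as deposited and 8 and 0 with reference genes. It had 10 and 1 with the mean over probe sets and 10 and 2 without suffix letters. Centring on reference genes shifted the median of all genes to 0.55 in granule cells over ES cells and to 0.67 in granule cells over Sox1 cells.

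All 29 called differences of members were recomputed, giving 245 values under the alternatives. Of these, 232 kept the call, 18 moved by at least the SD between probe sets of 1 member and 0 reversed. Both alternatives chosen after seeing the data, the brightest probe set by mean log2 signal and the low level without the array labelled HB9-GFP+, changed no member count. No paired analysis was possible because each group has 1 array. No detection flags were used, so signals near 157.5 are the least certain.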
